A study of Mus musculus with 6 samples.

Results

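Regulators of G protein signalling (RGS proteins) and the G protein subunit they act on were examined in B cells sorted from mouse colons. The set holds 8 genes, Rgs1, Rgs2, Rgs10, Rgs14, Rgs16, Rgs18, Rgs19 and Gnai2, chosen by symbol from the 20591 genes of the expression table, and all 8 were found. RNA sequencing gave 3 libraries from mice that received lenvatinib and 3 from mice that received DMSO, the solvent control. Lenvatinib, given by mouth as a cancer drug, blocks receptor tyrosine kinases such as the VEGF and FGF receptors. The series title places the comparison in work on colitis and on B cell entry into the gut through the vascular adhesion molecule MAdCAM-1. Both groups are labelled as B cells, and no inflammatory state, strain, age, dose or sorting marker is given in the sources used here. The libraries are numbered as biological replicates without a statement that each came from a separate animal, so the p-values below reflect how much these libraries differ within a group, and that spread may be technical.

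Chemokine receptors on lymphocytes signal through heterotrimeric G proteins of the Gi class. On binding of a chemokine, the receptor loads the alpha subunit with GTP, and the freed alpha and beta-gamma parts drive migration until the alpha subunit hydrolyses its GTP. RGS proteins speed up that hydrolysis and so shorten the signal, and Gnai2 encodes the principal Gi alpha subunit of lymphocytes. In B cells Rgs1 in particular is known for limiting responses to the follicular and homeostatic chemokines.

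Rgs1, Rgs10 and Rgs16 were higher in the lenvatinib libraries, and the other 5 genes did not pass the test. Rgs1 rose 1.85-fold, Rgs16 2.68-fold and Rgs10 1.46-fold in mean level. The group means of Gnai2, Rgs2 and Rgs19 differed by at most 2.73 percent. Levels are FPKM, fragment counts divided by gene length and by library size, and their comparison between genes depends on the lengths used. They were scaled between libraries by a median ratio. Changes were tested with limma on log2(scaled FPKM + 1) over 9936 genes, and the threshold was a Benjamini-Hochberg adjusted p of 0.05. Of the 8 genes 3 (37.5 percent) were called higher and 0 lower. The background was 10.5 percent of all tested genes called higher and 8.22 percent called lower. The groups of 3 libraries did not overlap for the same 3 genes, where 37.1 percent of all tested genes had groups that did not overlap (18.9 percent with lenvatinib above and 18.2 percent below). The members' median log2 change was 0.07, against 0.01 over all tested genes. At an unadjusted p of 0.05 the limma fit likewise had 0 members lower, and limma-voom on recovered reads called 0 lower.

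**Figure D1:**
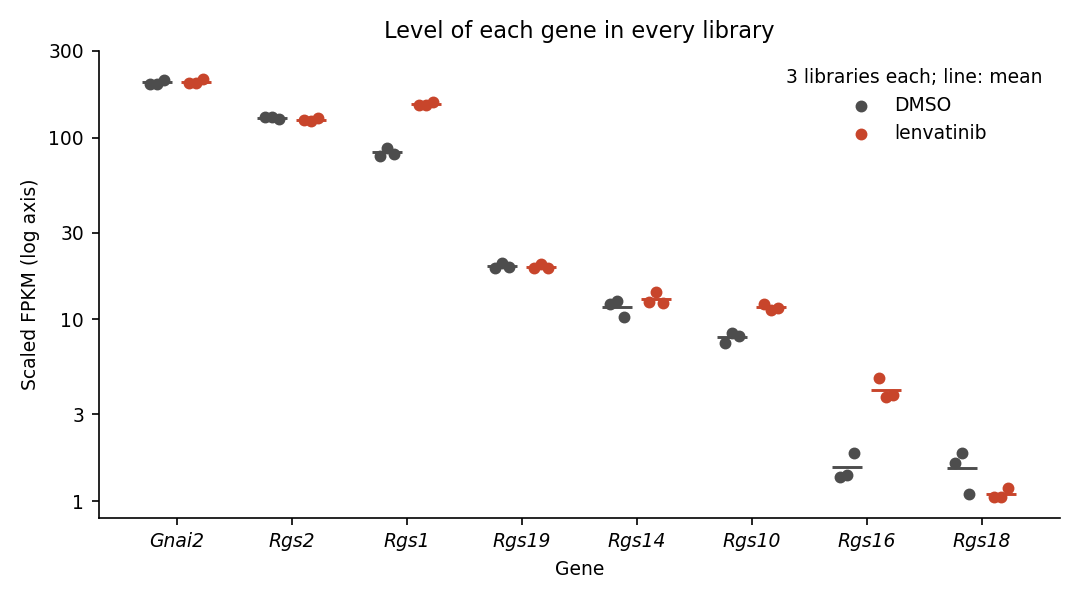
Scaled FPKM (log axis) of the 8 genes in each library, DMSO in grey and lenvatinib in red, with a line at each group mean of 3 libraries. The lenvatinib points lie above all DMSO points for Rgs1, Rgs10 and Rgs16, and the groups overlap for the other 5 genes.

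The libraries held between 26635279 and 31655500 assigned reads. Correlations of log values across genes were 0.9932 to 0.994 within groups and 0.9836 to 0.9845 between groups, and genes are not independent replicates. No library stood apart from its group. Each of the 8 genes had a scaled FPKM above 1 in every library, so none entered the test through its higher group alone. The reads behind a value ran from 62 for Rgs18 to 14009 for Gnai2. In the reference assembly GRCm38.p6 of RefSeq, the span of no member overlapped another gene.

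Gnai2 was the most abundant of the 8 genes and was level between the groups. Its scaled FPKM was 198.0, 197.6 and 206.8 in DMSO replicates 1, 2 and 3 and 200.3, 198.8 and 209.0 in lenvatinib replicates 1, 2 and 3. The groups overlapped over nearly their whole range. The means were 201 ± 5.23 and 203 ± 5.48 (SD, n = 3 each). The log2 change was 0.01, with a 95% interval of -0.06 to 0.08 and a limma adjusted p of 0.815. The reads behind it numbered 11476 to 14009 per library.

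Rgs1 encodes a small RGS protein that is induced on lymphocyte activation. Its level was 79.5, 87.9 and 81.4 in the DMSO libraries and 152, 152 and 156 in the lenvatinib libraries. Every lenvatinib library lay above every DMSO library, by at least 63.7 FPKM. The group means were 82.9 ± 4.42 and 153 ± 2.58, and the fitted log2 difference was 0.88 with an SE of 0.04 and a 95% interval of 0.79 to 0.97 (limma adjusted p = 2.65e-06). It had the smallest p of the 8 genes, on 2838 to 6536 reads per library. Among all tested genes, 1.56 percent had a larger positive log2 change.

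Rgs16 encodes another small RGS protein, which acts on Gi and Gq alpha subunits and is also inducible. Its level was 1.36, 1.39 and 1.85 in the DMSO libraries and 4.75, 3.75 and 3.82 in the lenvatinib libraries. The lowest lenvatinib library held 2.02 times the level of the highest DMSO library. The means were 1.54 ± 0.276 and 4.11 ± 0.56, which the fit put at 1.01 on the log2 scale with an SE of 0.12 and a 95% interval of 0.73 to 1.29 (limma adjusted p = 0.00052). Because 1 is added before taking logs, this change understates that of a gene at so low a level. Counts were 84, 101 and 130 reads in DMSO and 354, 255 and 247 reads in lenvatinib libraries. Limma-voom on those reads gave a log2 change of 1.43.

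Rgs10 and Rgs14 belong to the same RGS subfamily. Rgs10 is among the shortest RGS proteins, whereas Rgs14 also carries a Ras-binding region and a GoLoco motif that holds Gi alpha subunits in their GDP form. Rgs10 stood at 7.44, 8.45 and 8.08 in the DMSO libraries and at 12.1, 11.3 and 11.6 in the lenvatinib libraries. Its groups did not overlap. The means were 7.99 ± 0.513 and 11.7 ± 0.427, which the fit put at 0.50 on the log2 scale with an SE of 0.07 and a 95% interval of 0.34 to 0.65 (limma adjusted p = 0.00127). Rgs14 stood at 12.2, 12.7 and 10.4 in the DMSO libraries and at 12.4, 14.2 and 12.3 in the lenvatinib libraries, with overlapping groups. Its log2 change was 0.13, with a 95% interval of -0.07 to 0.33 and a limma adjusted p of 0.348. The SD of Rgs14 was 10.5 percent of its DMSO mean, where counting error alone gives 3.45 percent.

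Rgs2 and Rgs18 are further small RGS proteins. Rgs2 acts chiefly on Gq alpha subunits, and Rgs18 is best known from platelets and their precursors. Rgs2 stood at 129.5, 129.2 and 126.9 in the DMSO libraries and at 124.2, 122.6 and 128.3 in the lenvatinib libraries. Lenvatinib replicate 3 lay between the DMSO values. The log2 change was -0.04, with a 95% interval of -0.11 to 0.03 and a limma adjusted p of 0.408. Rgs18 stood at 1.63, 1.85 and 1.09 in the DMSO libraries and at 1.06, 1.06 and 1.18 in the lenvatinib libraries. The lenvatinib values were close together, and DMSO replicate 3 fell among them. The log2 change of Rgs18 was -0.26, with a 95% interval of -0.58 to 0.07 and a limma adjusted p of 0.255. On its 62 to 116 reads per library, counting error alone gives 10.6 percent of the mean in DMSO and 12.4 percent in lenvatinib libraries, where the SD was 25.7 and 6.57 percent.

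Rgs19, also called GAIP, is a Gi-directed RGS protein of a subfamily with a cysteine-rich stretch. Its level was 19.2, 20.5 and 19.5 in the DMSO libraries and 19.1, 20.2 and 19.1 in the lenvatinib libraries. The groups overlapped almost wholly. The log2 change was -0.02, with a 95% interval of -0.14 to 0.10 and a limma adjusted p of 0.866, the largest among the 8 genes.

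**Figure D2:**
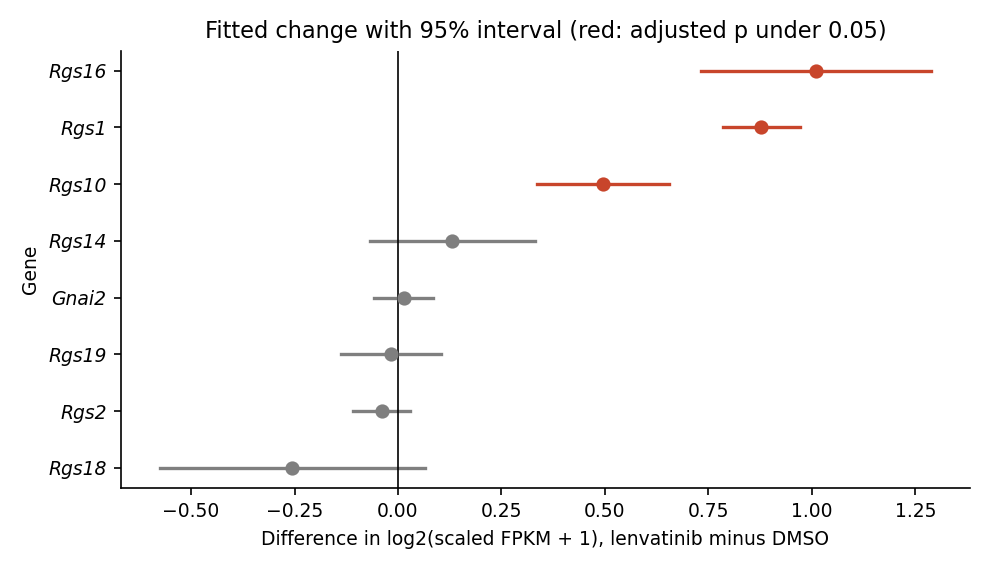
Fitted difference in log2(scaled FPKM + 1), lenvatinib minus DMSO, with its 95% interval for each of the 8 genes (3 libraries per group). Red marks Rgs16, Rgs1 and Rgs10, which passed an adjusted p of 0.05, and the intervals of the 5 grey genes include 0.

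The order of levels differed between the groups at a single pair. In DMSO libraries it ran Gnai2, Rgs2, Rgs1, Rgs19, Rgs14, Rgs10, Rgs16 and Rgs18. In lenvatinib libraries Rgs1 stood above Rgs2. This order depends on the gene lengths used for FPKM, 1350 bases for Rgs1 and 3009 for Rgs2. By reads Rgs2 was above Rgs1 in every library, with 10708 to 11929 against 5843 to 6536 in lenvatinib libraries. Neighbours in these orders did not overlap in their ranges over libraries, except Rgs16 and Rgs18 in DMSO libraries, which spanned 1.36 to 1.85 and 1.09 to 1.85. The ratio of Rgs1 to Rgs2 was 0.614, 0.68 and 0.642 in the DMSO libraries and 1.22, 1.24 and 1.22 in the lenvatinib libraries. Both genes come from the same library in each ratio, so no scaling between libraries enters it.

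Ratios to Gnai2 were taken in the same way. Rgs1 amounted to 0.413 ± 0.0276 of the Gnai2 level in DMSO libraries and to 0.756 ± 0.00792 in lenvatinib libraries. The ratio of Rgs10 to Gnai2 went from 0.0398 ± 0.00269 to 0.0576 ± 0.00263, and that of Rgs16 from 0.00763 ± 0.00116 to 0.0203 ± 0.003. In these 3 cases, as for Rgs1 to Rgs2, the groups did not overlap. The exact permutation p was 0.1, the smallest that 3 against 3 allows, and 0.2 after adjustment over 8 ratios, so none passed. For Rgs2, Rgs14, Rgs18 and Rgs19 the ratios to Gnai2 overlapped between groups, with exact permutation p from 0.4 to 0.6.

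Summed over all 17 RGS genes of the table, RNA was 255, 266 and 254 FPKM in the DMSO libraries and 333, 332 and 341 FPKM in the lenvatinib libraries. Rgs1 made up 32.1 percent of that sum in DMSO and 45.6 percent in lenvatinib libraries. Without Rgs1 the sum was 176 ± 2.86 and 182 ± 2.31. Rgs1 and Rgs2 together made up between 81.5 and 83.4 percent of the sum in every library. All these shares depend on the gene lengths used for FPKM.

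Of the 10 RGS genes of the table outside the set, Rgs13 was the only one that passed the filter on low values. Rgs13, a small RGS protein known from germinal centre B cells, had means of 2.93 ± 0.216 and 5.18 ± 0.229 and rose by 0.65 on the log2 scale, with an SE of 0.09 (limma adjusted p = 0.000933). Its DMSO values of 3.18, 2.80 and 2.81 all lay below its lenvatinib values of 4.98, 5.13 and 5.43. Among the 9 below the filter, Rgs3 and Rgs11, named after their values were seen, had groups that did not overlap, with lenvatinib above. Among the tested genes, to which Rgs3 and Rgs11 do not belong, the same held for 18.9 percent. Rgs3 stood at 0.556 ± 0.0194 and 0.993 ± 0.152, and Rgs11 at 0.185 ± 0.0349 and 0.466 ± 0.056. In the fit without a filter their limma adjusted p were 0.0945 and 0.0888.

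In the RefSeq gene order of chromosome 1, Rgs2, Rgs13, Rgs1, Rgs21 and Rgs18 follow each other with no other protein-coding gene between them. The neighbours in the middle, Rgs13 and Rgs1, rose. Rgs2 and Rgs18, at the outer ends of the run, did not pass the test. By symbol, Rgs21 was not among the genes of the expression table. Next to Rgs2, the deubiquitinase gene Uchl5 had a log2 change of 0.06 (limma adjusted p = 0.628). The third protein-coding gene beyond Rgs18, Ptgs2, rose by 0.83 (limma adjusted p = 0.000331). Gene order does not give the distance between these genes, which was not examined. Rgs16 lies elsewhere on the same chromosome.

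**Figure D3:**
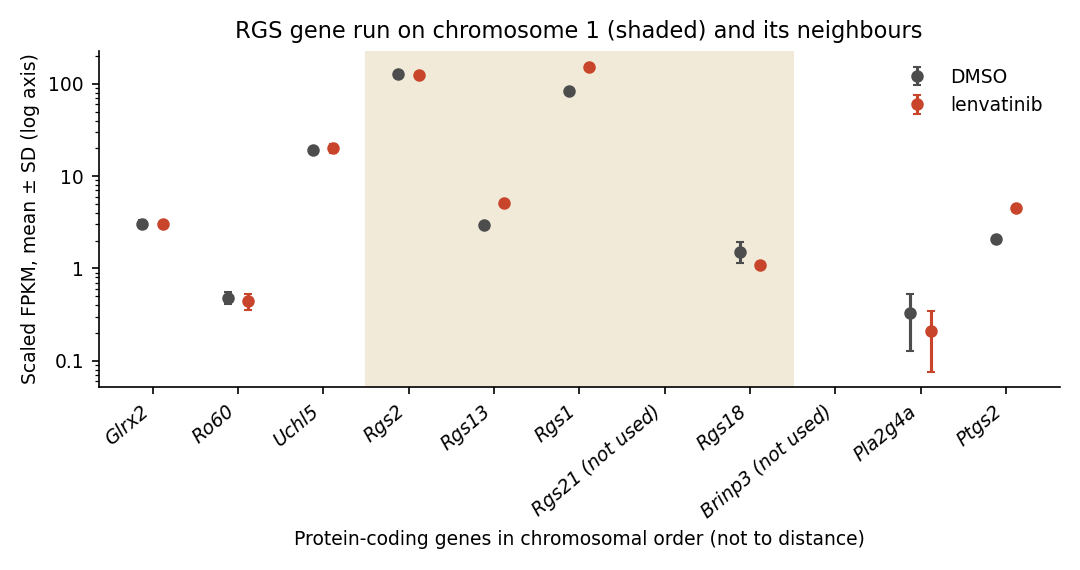
Mean scaled FPKM ± SD (log axis, n = 3 libraries per group) of protein-coding genes in their chromosomal order around the RGS run (shaded), DMSO in grey and lenvatinib in red. Rgs13 and Rgs1 are higher in lenvatinib libraries, while Rgs2 and Rgs18, at the outer ends of the run, are not past the threshold.

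Promoter windows of 300 bases, from 250 before to 50 after the annotated start, were held in RefSeq's table (build GRCm38.p6) for 4 of the 8 genes. Those of Rgs16 and Rgs10, which rose, are shown beside that of Rgs2, which stayed level. Capitals mark the GC box (GGGCGG) and the CCAAT box (CCAAT) on either strand. The windows are Rgs16 at chr1:153740103-153740402 on the plus strand, Rgs10 at chr7:128418123-128418422 on the minus strand and Rgs2 at chr1:144004100-144004399 on the minus strand.
Rgs16: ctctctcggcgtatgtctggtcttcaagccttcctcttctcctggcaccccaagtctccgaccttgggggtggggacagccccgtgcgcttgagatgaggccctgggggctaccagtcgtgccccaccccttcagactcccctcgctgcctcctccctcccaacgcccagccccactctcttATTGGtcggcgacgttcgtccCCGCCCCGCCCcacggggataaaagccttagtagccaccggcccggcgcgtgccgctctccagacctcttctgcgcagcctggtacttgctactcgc
Rgs10: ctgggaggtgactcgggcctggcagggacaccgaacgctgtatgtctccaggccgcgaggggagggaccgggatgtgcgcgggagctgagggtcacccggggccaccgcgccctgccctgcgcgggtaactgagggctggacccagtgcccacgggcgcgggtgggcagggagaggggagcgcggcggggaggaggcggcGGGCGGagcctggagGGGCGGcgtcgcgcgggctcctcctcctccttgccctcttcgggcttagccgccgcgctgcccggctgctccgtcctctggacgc
Rgs2: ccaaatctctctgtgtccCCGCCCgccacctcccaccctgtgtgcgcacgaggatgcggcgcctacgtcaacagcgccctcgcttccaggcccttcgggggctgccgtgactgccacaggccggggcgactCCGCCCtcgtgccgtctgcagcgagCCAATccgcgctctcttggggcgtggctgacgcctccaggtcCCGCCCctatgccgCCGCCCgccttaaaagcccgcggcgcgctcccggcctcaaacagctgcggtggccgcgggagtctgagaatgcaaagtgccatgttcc

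All 3 windows are rich in G and C, with 66.0 percent for Rgs16, 76.0 percent for Rgs10 and 70.0 percent for Rgs2, where the median promoter has 52.7 percent. They hold 22, 34 and 33 CG pairs, against a median of 7. Rgs16 and Rgs10 have 2 GC boxes each and Rgs2 has 4, and 35.7 percent of the 32851 promoter windows hold at least 1. A CCAAT box is present in the Rgs16 and Rgs2 windows and not in that of Rgs10, with 37.4 percent of all windows holding one. The cAMP response element core TGACG occurs 2 times in the Rgs2 window and in neither of the others, and 20.8 percent of all windows hold it. The letters of the TATA box (TATAAA, in 13.6 percent of all windows), the AP-1 site (TGANTCA, in 7.81 percent), the E-box (CACGTG, in 7.15 percent) and the STAT site (TTCNNNGAA, in 8.3 percent) are in none of the 3 windows. Both strands were searched for each motif. No searched motif was shared by the Rgs16 and Rgs10 windows and missing from that of Rgs2. The windows of Rgs19, which also stayed level and are not shown, held 0, 2 and 1 GC boxes.

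Among the genes whose pattern over the 6 libraries was most like that of Rgs1 were Ikzf2 and Ptgs2, with Pearson correlations of log2 values of 0.9991 and 0.9989. Ikzf2 encodes the transcription factor Helios and Ptgs2 an inducible cyclooxygenase. The Ikzf2 level was 0.43 to 0.785 in DMSO and 3.54 to 3.68 in lenvatinib libraries. Ikzf2 thus passed the filter on low values through its lenvatinib libraries alone. For Ptgs2 the ranges were 1.92 to 2.26 and 4.304 to 4.689. Any gene with well separated groups scores high on this measure. For Rgs19, the member with the largest p, the most alike were Armc5, Nuggc and Zfp24, with correlations of 0.9881, 0.9871 and 0.9859, and each of them had nearly equal group means.

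For the other genes of the pathway, a list of 97 was drawn up, covering other RGS genes, G protein subunits, further regulators of alpha subunits, receptor kinases and arrestins, Gi-coupled receptors and migration effectors. Of the 57 that were tested, 3 were higher and 11 lower, with a median log2 change of -0.01 and a range of -0.37 to 0.65. For this list and its parts below, the background over all tested genes was 10.5 percent called higher and 8.22 percent called lower. The number of pathway genes called lower was 7 without DMSO replicate 1 and likewise 7 without lenvatinib replicate 1, 2 or 3.

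Among 7 tested alpha subunits other than Gnai2, 1 was higher and 1 lower, with a median log2 change of 0.06. Gna13, which is known for holding B cells within follicles, fell from 93.3 ± 2.13 to 79.9 ± 0.724 (limma adjusted p = 0.00165). Gnas, the subunit that stimulates adenylyl cyclase, rose from 76.7 ± 0.52 to 83.9 ± 0.701 (limma adjusted p = 0.0213), a call lost in 9 of 18 alternatives, among them the replicate block (adjusted p = 0.0524). Gnai3, the nearest relative of Gnai2 at a high level and named after its values were seen, stood at 59.0 ± 1.56 and 61.5 ± 2.21 (limma adjusted p = 0.366). Of 6 tested beta and gamma subunits 1 passed, Gng2, at 18.4 ± 0.742 and 15.3 ± 1.67 (limma adjusted p = 0.0496), a call lost in 11 of 18 alternatives (adjusted p = 0.0561 with the replicate block).

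Of 6 tested regulators of alpha subunits outside the RGS family, 0 were called by limma, with 2 lower at an unadjusted p of 0.05 and 1 lower by limma-voom. The 2 were Gpsm3 and Ccdc88c, both of which bind Gi alpha subunits, with limma adjusted p of 0.154 and 0.104. Ric8a, a chaperone of alpha subunits, stood at 17.7 ± 1.77 and 18.8 ± 1.5. Of 4 tested receptor kinases and arrestins, which silence the receptor itself, 0 were called by limma, with 2 lower at an unadjusted p of 0.05 and 2 by limma-voom. Both were receptor kinases: Grk2 stood at 139 ± 2.82 and 129 ± 2.84 (limma adjusted p = 0.0582) and Grk6 at 121 ± 3.79 and 113 ± 1.31 (limma adjusted p = 0.0585).

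Among 14 tested Gi-coupled receptors of lymphocytes 3 fell and 1 rose, and with libraries scaled to B cell markers 0 were called lower and 8 higher. Ccr7, the receptor for lymph node chemokines, went from 653 ± 3.49 to 539 ± 3.33, Cxcr4, the receptor for Cxcl12, from 240.4 ± 5.09 to 197.6 ± 3.91, and S1pr1, the exit receptor for sphingosine 1-phosphate, from 86.0 ± 1.07 to 70.0 ± 2.6. The oxysterol receptor Gpr183 rose from 37.4 ± 0.567 to 45.4 ± 2.46 (limma adjusted p = 0.00437). Of 19 tested migration effectors 6 fell and 0 rose, with 2 higher at an unadjusted p of 0.05, 2 higher by limma-voom, and 1 lower and 10 higher with scaling to B cell markers. Rasgrp2, an activator of Rap, fell from 25.3 ± 0.93 to 19.4 ± 0.367 (limma adjusted p = 0.00106). Rap1b itself went from 457 ± 6.54 to 416 ± 0.458 and Pik3cg, the lipid kinase activated by beta-gamma subunits, from 14.8 ± 0.93 to 11.9 ± 0.373. Each of these calls was lost in 3 of 18 alternatives. Rap1b had a log2 change of -0.06 with quantile normalization (limma adjusted p = 0.159) and an adjusted p of 0.097 without trend or robust moderation in limma. For Pik3cg the limma adjusted p was 0.0533 without DMSO replicate 2 and 0.0521 without lenvatinib replicate 2. Scaling to B cell markers ended both calls as lower. The number of effectors called lower was 3 without DMSO replicate 1 or 2 or lenvatinib replicate 1 or 3, and 2 without lenvatinib replicate 2.

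**Figure D4:**
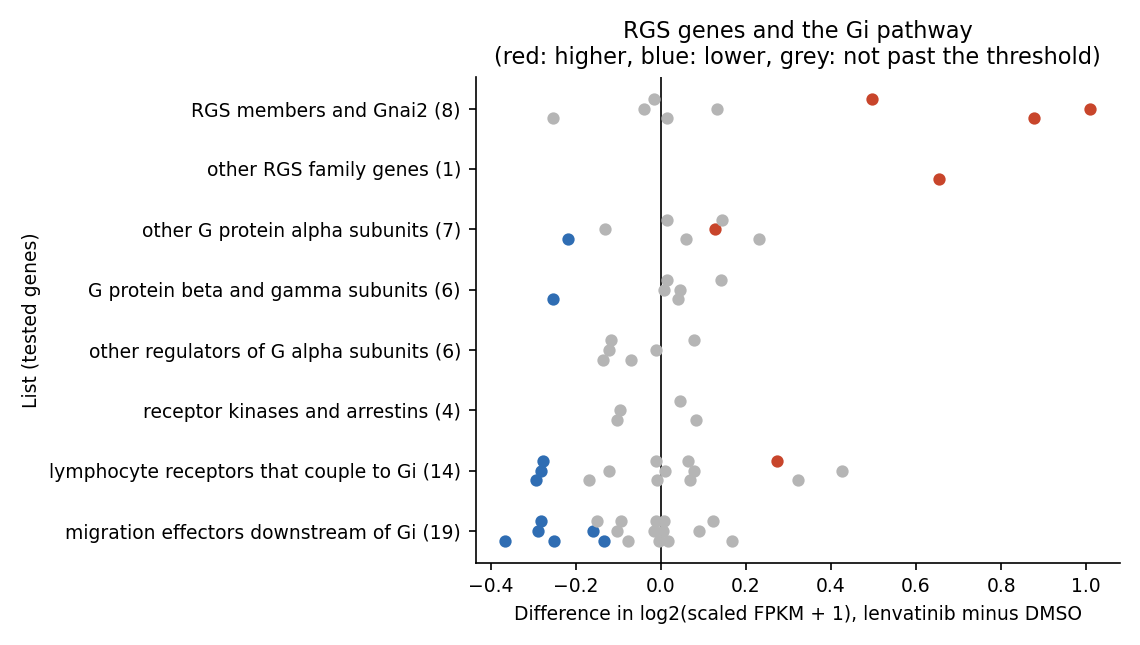
Difference in log2(scaled FPKM + 1), lenvatinib minus DMSO, of every tested gene of the set and of 7 lists of the Gi pathway, with 1 point per gene. Red points were called higher, blue lower and grey neither; the changes called in the other lists lie between -0.37 and 0.65, and those of Rgs1 and Rgs16 lie above 0.65.

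Markers of other cells moved in the same libraries. All 15 B cell markers were present at high summed levels, 3825 to 3854 FPKM in DMSO and 3259 to 3302 FPKM in lenvatinib libraries, and 13 of them fell. The sum of 11 T cell markers was 21.9 to 23.7 FPKM in DMSO and 96.3 to 98.9 FPKM in lenvatinib libraries, with 5 of 8 tested genes higher. That sum rose by 75.0 FPKM, the natural killer and innate lymphoid sum by 71.4 FPKM and the colon epithelium sum by 55.5 FPKM. Rgs1 alone rose by 70.2 FPKM, and a sum over several genes is not on the scale of a single gene. The sum of 12 natural killer and innate lymphoid markers was 22.8 to 25.1 and 93.1 to 98.3 FPKM, with 8 of 8 tested genes higher. The sum of 12 colon epithelium markers was 14.6 to 15.9 and 68.1 to 73.5 FPKM, with 9 of 9 tested genes higher. Krt8, at 0.73 to 0.963 FPKM in DMSO and 3.92 to 5.36 FPKM in lenvatinib libraries, passed the filter through its lenvatinib libraries alone. Other tested markers could do so too, so the filter itself favours calls as higher in these counts. Over all tested genes 10.5 percent were called higher and 8.22 percent lower. T cells and natural killer cells are also known to express Rgs1, Rgs10 and Rgs16. The part of these cells in the rises of Rgs1, Rgs10, Rgs16 and Rgs13 was not tested, and in bulk samples fewer cells of a type and less RNA per cell cannot be told apart.

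Summed markers of macrophages and dendritic cells were 52.3 to 53.7 and 59.7 to 67.5 FPKM, and those of neutrophils 6.58 to 7.63 and 11.95 to 17.04 FPKM. Of 5 platelet and megakaryocyte markers, the lineage in which Rgs18 is best known, 4 were below 1 FPKM in every library. Their sums, 1.19 to 3.35 and 1.73 to 3.20 FPKM, overlapped between groups. Lenvatinib libraries had the higher sums, without overlap, for mast cell markers (3.27 to 3.99 and 8.70 to 10.2 FPKM), for fibroblast and muscle markers (4.15 to 6.27 and 6.70 to 8.66 FPKM) and for endothelial markers (0.554 to 1.10 and 1.47 to 2.18 FPKM). Below 1 FPKM in every library were 4 of 6 mast cell, 6 of 9 fibroblast and muscle and 8 of 8 endothelial markers. No list had a marker at 0 in every library.

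**Figure D5:**
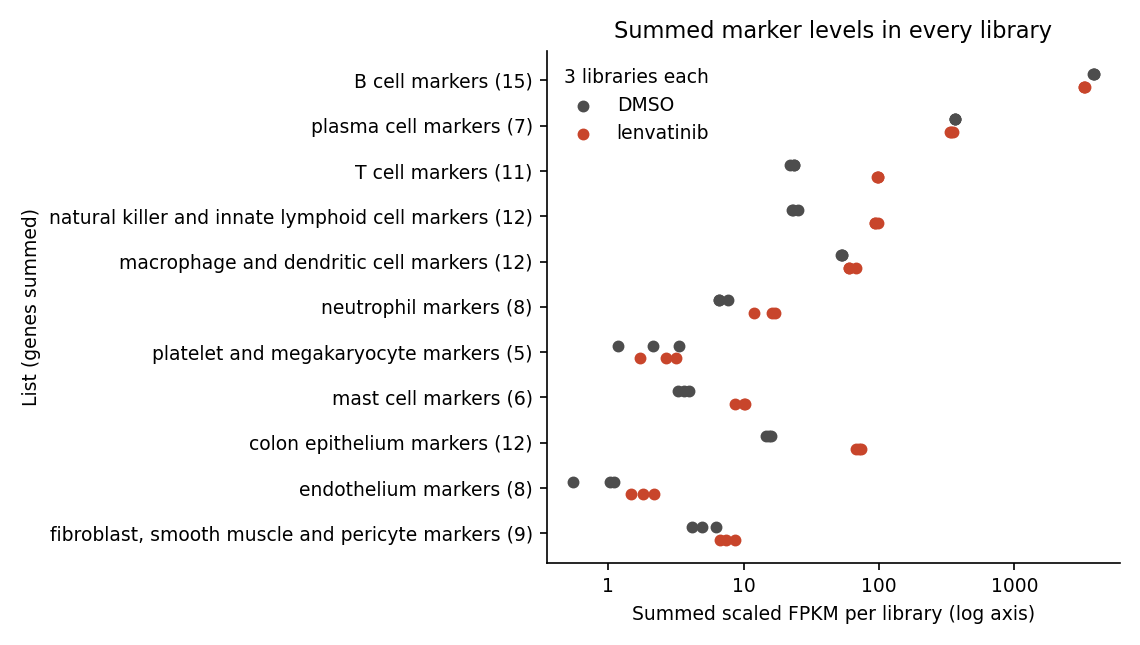
Summed scaled FPKM (log axis) of each marker list in every library, DMSO in grey and lenvatinib in red, 3 libraries each. The T cell, natural killer and epithelial sums lie at 68.1 to 98.9 FPKM in lenvatinib and 14.6 to 25.1 FPKM in DMSO libraries, and the B cell sums are lower in lenvatinib libraries.

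The members were also compared with libraries scaled to the 15 B cell markers. Each level still holds RNA from every cell type in the sample, so this scale does not give the change within B cells. This moved the median log2 change of all tested genes from 0.01 to 0.21. On this scale Rgs1 was higher by 1.11, Rgs16 by 1.18 and Rgs10 by 0.71, all past the threshold. Rgs2, Rgs19 and Gnai2 had log2 changes of 0.19, 0.21 and 0.25, close to that median, and all 3 passed the limma threshold there (adjusted p = 0.00134, 0.0137 and 0.00026). Rgs14, at 0.35, passed as well (limma adjusted p = 0.0124), while Rgs18, at -0.12, did not. Ccr7, Cxcr4 and S1pr1 were at -0.04, -0.05 and -0.06 on this scale and no longer passed, and Gna13 was at 0.01.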

How the data were processed

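Per the labels' protocols, TRIzol served to extract total RNA and a VAHTS kit to build the libraries. The submitters' processing notes name HTSeq, a read counter, and build GRCm39; the sources used here do not give aligner, annotation or strand use. Values were deposited by the authors as FPKM, 1 column per library, matched by the column name in each sample's description. Here FPKM was scaled by median-of-ratios factors (0.9933 to 1.0107). Testing covered the 9936 of 20591 genes that reached a scaled FPKM of 1 in 3 or more of the 6 libraries, on log2(scaled FPKM + 1) with limma 3.58.1 under R 4.3.3 (trend, robust, two-sided, Benjamini-Hochberg adjustment). Reads were recovered as whole multiples of each gene's FPKM step (tolerance 1e-05) for 99.5 percent of the 19715 genes with a value, with totals set by the lengths of mitochondrial genes, of which 12 of 13 gave the same scale. Counting errors are square roots of those reads. Ratios were compared by exact two-sided permutation. The procedures were tested on simulated data. Members, lists and tests were chosen with earlier results of these data known. All members are named; from each list the tested genes of smallest p (up to 4) and any call against its majority were named or counted, with the 3 genes most correlated with the members of smallest and largest p, of which 1 is not reported here. Alternatives were other pseudocounts, filters, scalings and moderation, a replicate block, weights per library, limma-voom, and leaving out each library.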

Additional observations from a re-analysis of the deposited data

How the results depend on the processing

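Of 8 genes, Rgs1, Rgs10, Rgs16 and Rgs18 kept direction and side of the threshold in every alternative that could be run, 18 for Rgs1 and Rgs10 and 17 for Rgs16 and Rgs18, which the mean filter of 5 leaves out. Log2 changes ran from 0.85 to 1.11 for Rgs1, 0.45 to 0.71 for Rgs10 and 0.92 to 1.43 for Rgs16. Scaling to B cell markers, which by construction sets those genes level, changed the other calls: Rgs2 to 0.19 and Rgs19 to 0.21, both reversed, and Rgs14 to 0.35 and Gnai2 to 0.25, all past the threshold. It gave 4633 genes called higher and 183 lower, against 1039 and 817, and 31 and 1 in the pathway lists against 3 and 11. Relative to DMSO, B cell marker sums were then 1.01 and plasma cell sums 1.11, against 0.854 and 0.939. On that scale Gna13 (0.0122), Rap1b (0.0992) and Stk4 (0.0702), called lower with the median-ratio scaling, also turned positive. So did Grk2 (0.136), Grk6 (0.13), Gpsm1 (0.0632), Gpsm3 (0.112) and Ccdc88c (0.0875), which were uncalled with the median-ratio scaling. Of all these, Grk2, Grk6 and Rap1b passed the threshold as higher (limma adjusted p = 0.00531, 0.00701 and 0.0195). In the remaining alternatives the uncalled changes of Rgs19 and Gnai2 lay on both sides of 0 (-0.04 to 0.01 and -0.01 to 0.03). Scaling to the sum of FPKM gave 859 genes higher and 978 lower, quantile normalization 918 and 934, and FPKM as deposited 1181 and 721. Limma-voom on recovered reads called 5 pathway genes higher; the cause was not tested. With 1 library left out, genes called higher ranged from 673 to 827, the lowest without lenvatinib replicates 1 (680) and 2 (673), and pathway genes called lower from 7 to 9; fewer samples were then fitted. Same-numbered libraries did not deviate together (correlations -0.007, 0.006 and -0.005), which does not settle whether the numbers pair them. The replicate block gave Rgs1 a limma adjusted p of 0.000103 and 894 genes higher and 648 lower. It changed no call of the 8 genes. Reads were fewest for Rgs18 and Rgs16, at 62 and 84 in their lowest libraries.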
